A study of Mus musculus with 18 samples.

Results

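The comparison described here set 3 mouse livers with active MycER, group 12ON, against 3 livers without MycER activation, group 12, all taken 12 days after injury. These 6 libraries are the ones that the labels give for that contrast, out of 18 libraries in 6 groups of 3. In MycER the transcription factor MYC is joined to the part of the estrogen receptor that binds hormone, and the protein stays inactive until tamoxifen or its metabolite binds. Every mouse of the series had received carbon tetrachloride, a toxin that kills hepatocytes around the central vein, as an intraperitoneal dose of 0.5 µL per g of body weight in oil. Group 12ON had tamoxifen at 1 mg, injected intraperitoneally each day. The labels used here do not give the strain, sex or age of the mice, the promoter that drives the transgene, which liver cells carry it, or whether group 12 received tamoxifen. If group 12 did not, MycER activation and tamoxifen itself cannot be told apart in the contrast. Groups 1OFF, 2OFF, 3OFF and 7OFF, which the labels place 1, 2, 3 and 7 days after injury, entered the fit. They are used only for the levels given near the end, and the labels do not say whether MycER was active in them earlier.

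MYC pairs with MAX and binds DNA at short E-box sequences, of which CACGTG is the canonical form. It is known for raising the cell's capacity to make ribosomes, proteins, nucleotides and mitochondria, and for driving the cell cycle. In the liver of adult mice it is kept low, and prolonged MYC activity is a classical route to liver tumours that resemble hepatoblasts. Mature hepatocytes export most plasma proteins and carry the enzymes of drug metabolism, amino acid breakdown and bile formation.

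Poly-A RNA was read as single 50 nt reads, and the deposited values are counts per gene. The 12ON libraries held 36.6 to 46.8 M counts and those of group 12 held 23.1 to 50.6 M, so depth overlapped. Xist was at 390.1 CPM in 12ON mouse 2 and at 287 CPM in mouse 3 of group 12, and at most 0.778 CPM in the other 4 livers, so each group held 1 liver that stands apart in this gene. With a term for it 4315 genes were higher and 4059 lower. The 10 most abundant genes took 14.2% to 15.2% of the counts in 12ON and 21.0% to 22.8% in group 12. Reads of the mitochondrial chromosome made up 6.42% to 7.11% of the total in 12ON and 4.80% to 5.25% in group 12, so this share and MycER activation cannot be told apart in the contrast.

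Of 17789 genes tested, 4269 were higher in 12ON than in group 12, which is 24.0%, and 4029 were lower, which is 22.6%. At least 2-fold changes were called for 1761 higher genes (9.90%) and 1449 lower genes (8.15%). The large changes leaned upward: 692 genes rose and 400 fell at least 4-fold, 348 rose and 159 fell at least 8-fold, and 81 rose and 45 fell at least 32-fold. Without TMM scaling, on total counts alone, the median log2 fold change of all genes shifted by 0.49, and 9130 genes were called higher and 1403 lower. Directions below are therefore relative to the median gene, whose log2 fold change was -0.0047 in the TMM fit. With a term for the mitochondrial share 2328 genes were higher and 1789 lower. Levels are given in CPM, counts per M of the scaled library size. Calls were made at an adjusted p under 0.05 (quasi-likelihood test of edgeR, p-values adjusted across the 17789 genes after Benjamini and Hochberg), log2 fold changes are given ± their standard error, and means ± SD are over 3 mice a group. Where a named gene is said to rise or fall, it passed that test. The groups did not overlap for 5339 of the tested genes on the higher side (30.0%) and 5021 on the lower side (28.2%). A lack of overlap, where given below, therefore does not mark a gene out.

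**Figure D1:**
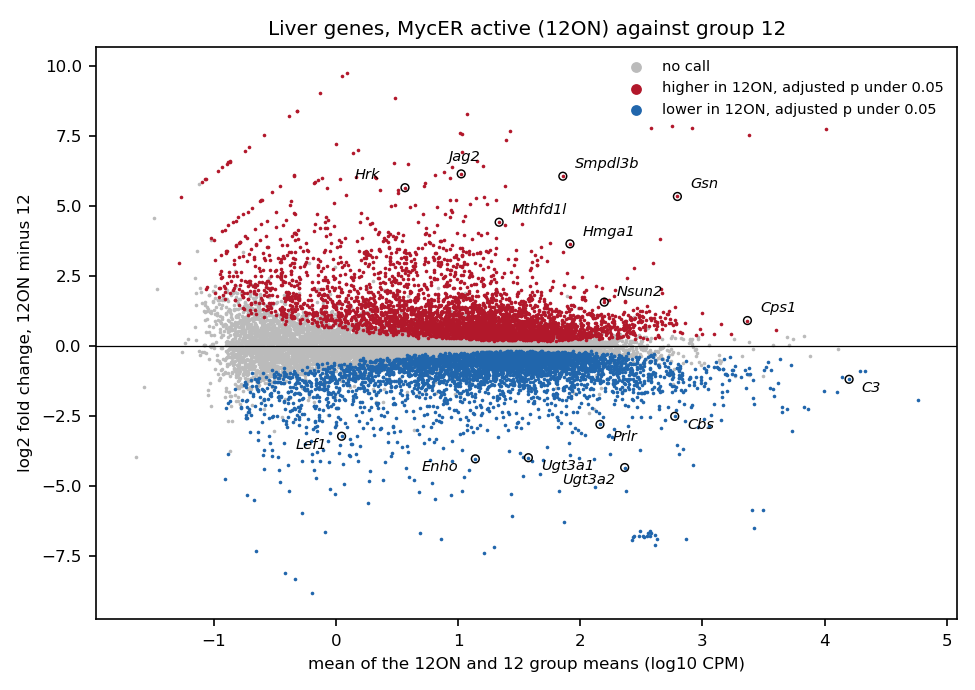
Each point is 1 of the 17789 tested genes, with the mean of both group means on the x axis (log10 CPM) and the log2 fold change of 12ON minus 12 on the y axis. Red points were higher and blue points lower in 12ON at an adjusted p under 0.05, and circled genes are among those described in the text.

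Of 10 hepatocyte markers 9 fell and 1, Cps1, rose (on total counts 1 higher and 7 lower, with the mitochondrial term 0 higher and 5 lower), and their summed level was 34976 to 43895 CPM in 12ON, against 121293 to 129715 CPM in group 12. Alb made up most of that sum, averaging 24039 CPM in 12ON and 91886 CPM in group 12. None of the 10 hepatocyte markers was at 0 in either group. The same held for markers of other cell types, so it does not by itself bear out the tissue label. All 7 endothelial markers fell, of which 4 did so on total counts (169 to 186 CPM in 12ON, 346 to 396 CPM in group 12), as did all 4 B cell markers, of which 2 did so with the mitochondrial term (0.981 to 1.20 CPM in 12ON, 4.31 to 5.82 CPM in group 12). Of 7 cholangiocyte markers 6 rose (204 to 215 CPM in 12ON, 46.1 to 110.6 CPM in group 12), and of 8 stellate and fibroblast markers 4 rose (761 to 809 CPM in 12ON, 401 to 509 CPM in group 12). These 4 rises were 2 without 12ON mouse 3 or without mouse 2 of group 12, 0 with the mitochondrial term and 8 on total counts. Of 8 macrophage markers 3 fell (791 to 1051 CPM in 12ON, 1170.4 to 1325 CPM in group 12), but this turned with the scaling, to 2 higher and 1 lower on total counts, and 0 were higher and 0 lower with the mitochondrial term. Of 5 mesothelial markers Krt8, a keratin that hepatocytes and bile ducts also express, rose and Wt1 fell, and their sum was 653 to 890.1 CPM in 12ON and 178 to 245 CPM in group 12. Krt8 made up most of that sum, at 648, 887 and 666 CPM in 12ON livers, against 170.1, 236 and 182 CPM in group 12. The fall of Wt1 was lost on total counts, with the mitochondrial term, without 12ON mouse 2 or 3, and without mouse 2 of group 12. In bulk liver, fewer cells of a type and less RNA per cell cannot be told apart, and the part that these shifts have in the results below was not tested. The library of 12ON mouse 3 also held the pancreatic transcripts Prss2 at 18.3 CPM and Cela2a at 21.4 CPM, and without it their log2 fold changes were 2.65 and -0.71, with no call.

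Among genes changed at least 2-fold, the rise with the smallest p-value was that of Smpdl3b, which encodes a lipid-modifying enzyme anchored to the outer cell membrane (chromosome 4, 132732966 to 132757252 in GRCm38). It was read at 135, 146 and 144 CPM in 12ON livers, against 2.65, 1.99 and 1.83 CPM in group 12, which is a 67.1-fold rise (log2 6.07 ± 0.25, adjusted p = 1.27e-09). The lowest 12ON liver stood far above the highest liver of group 12. The next was C1qbp, a protein of the mitochondrial matrix, with 156, 179.7 and 159 CPM in 12ON livers, against 55, 48 and 55.5 CPM in group 12 (log2 1.64 ± 0.09, adjusted p = 6.59e-08). Both groups were tight for this gene too. The arginine methyltransferase genes Prmt5 and Prmt3 rose, Prmt5 3.1-fold and Prmt3 3.19-fold. Bzw2, which encodes a mimic of the translation factor eIF5, was at 77.6, 98.2 and 87.9 CPM in 12ON livers, against 6.8, 6.93 and 8.87 CPM in group 12 (log2 3.53 ± 0.22). Thop1, encoding a peptidase that cuts short peptides, rose 5.48-fold, and Fig4, a phosphoinositide phosphatase gene, rose 2.51-fold. Genes of mitochondrial translation and upkeep were in this set: Noa1, a GTPase of mitoribosome assembly (4.75-fold), Mars2, the mitochondrial methionyl-tRNA synthetase (4.5-fold), and Atad3a, an ATPase of the inner membrane (2.71-fold). Mtrr, which keeps methionine synthase active, rose 4.9-fold. The sterol-binding protein gene Osbpl3 rose 10.7-fold and the MYC-interacting factor gene Cdca7l rose 11.2-fold.

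Among the firmest falls was Entpd8, an ecto-enzyme that breaks down nucleotides outside the cell, at 30.2, 26.4 and 31.9 CPM in 12ON livers, against 97.3, 112 and 127 CPM in group 12 (log2 -1.93 ± 0.13, adjusted p = 8.66e-08). C1rl, a protease related to complement C1r, fell 2.9-fold, and Afm, which encodes the vitamin E carrier afamin, fell 3.8-fold. Ceacam1, a cell adhesion receptor that promotes insulin clearance by hepatocytes, was at 61.2, 47.4 and 65.1 CPM in 12ON livers, against 219, 214 and 219 CPM in group 12. The livers of each group lay close together and the groups stood well apart (log2 -1.91 ± 0.16). Its neighbour Ceacam2 fell 3.67-fold, and since these paralogs are alike and reads with several alignments were not counted, their values are uncertain. Lower as well were Fam210b, a mitochondrial protein gene (3.58-fold), Plbd1, a phospholipase-like gene (4.1-fold), and Nostrin, which binds endothelial nitric oxide synthase (2.43-fold). Nostrin is expressed in endothelium, whose markers fell together as given above.

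Promoter windows are shown for the 3 genes of the set of 20 firmest rises that hold a CACGTG, the sequence to which MYC and MAX bind. Of the firmest falls 1 that holds it, Cbs, was chosen by hand. C1rl, Plbd1 and Ceacam1, also among the firmest falls, hold the motif too and are not printed. Each window runs from 250 bases before to 50 bases after the RefSeq start (GRCm38.p6) and is written 5′ to 3′ on the strand of the gene, with the motif in capitals. Smpdl3b lies on the minus strand (chr4:132757122-132757421), Bzw2 on the minus strand (chr12:36156776-36157075), Prmt3 on the plus strand (chr7:49778108-49778407) and Cbs on the minus strand (chr17:31637156-31637455).
Smpdl3b: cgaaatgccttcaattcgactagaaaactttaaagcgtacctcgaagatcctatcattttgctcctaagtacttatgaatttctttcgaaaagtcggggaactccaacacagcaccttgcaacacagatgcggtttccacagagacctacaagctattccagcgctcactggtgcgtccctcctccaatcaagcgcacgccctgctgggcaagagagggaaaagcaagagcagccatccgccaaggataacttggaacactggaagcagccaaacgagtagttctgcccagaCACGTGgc
Bzw2: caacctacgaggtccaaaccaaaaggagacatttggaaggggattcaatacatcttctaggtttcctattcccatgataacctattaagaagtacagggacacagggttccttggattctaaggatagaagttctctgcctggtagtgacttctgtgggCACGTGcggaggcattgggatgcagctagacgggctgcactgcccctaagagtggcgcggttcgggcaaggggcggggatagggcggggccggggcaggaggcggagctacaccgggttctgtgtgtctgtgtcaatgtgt
Prmt3: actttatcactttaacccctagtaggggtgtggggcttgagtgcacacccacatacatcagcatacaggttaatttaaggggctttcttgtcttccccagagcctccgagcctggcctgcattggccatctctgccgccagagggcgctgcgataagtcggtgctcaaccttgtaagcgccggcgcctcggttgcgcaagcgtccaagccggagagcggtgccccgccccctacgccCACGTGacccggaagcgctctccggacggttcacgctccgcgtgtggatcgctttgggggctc
Cbs: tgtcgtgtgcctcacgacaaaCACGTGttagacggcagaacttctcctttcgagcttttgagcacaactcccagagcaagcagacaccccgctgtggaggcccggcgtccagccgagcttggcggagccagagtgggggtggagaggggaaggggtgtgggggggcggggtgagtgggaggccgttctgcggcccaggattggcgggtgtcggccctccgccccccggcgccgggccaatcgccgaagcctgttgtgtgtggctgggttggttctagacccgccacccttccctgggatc

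The motif began 42 bases after the start in Smpdl3b, and 91, 13 and 229 bases before it in Bzw2, Prmt3 and Cbs. CACGTG reads the same on both strands, and the longer CLEAR element of lysosomal genes contains it. A RefSeq promoter was found for 12476 tested genes, and 1367 of them (10.96%) held the motif in at least 1 window. It was present for 385 of 3067 genes called higher (12.55%), for 305 of 2930 called lower (10.41%) and for 677 of 6479 without a call (10.45%). Of all 32851 promoter windows 7.15% held it. Among the firmest genes with a promoter it was present for 3 of 16 that rose and for 4 of 14 that fell. A match of letters is a description, and neither binding of MycER nor its absence follows from it.

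The machinery that charges tRNAs and builds proteins changed unevenly. Of 23 aminoacyl-tRNA synthetase and cofactor genes, 13 rose and 2 fell (on total counts 18 higher and 2 lower, with the mitochondrial term 11 higher and 2 lower), with a median log2 fold change of 0.32. Vars, the valyl-tRNA synthetase, was at 196, 220.0 and 121 CPM in 12ON livers, against 43.5, 48.4 and 44.2 CPM in group 12 (log2 1.98 ± 0.26), and the value of 12ON mouse 3 was the lowest of its group. Iars, for isoleucine, rose 2.38-fold, Farsa, for phenylalanine, rose 2.07-fold and Eef1e1, a scaffold protein of the multi-synthetase complex, rose 2.87-fold. Aars and Tars, for alanine and threonine, went the other way. Tars was at 86.7, 87.5 and 85.7 CPM in 12ON livers, against 208, 200.0 and 159 CPM in group 12 (log2 -1.12 ± 0.17), and Aars at 144, 143 and 137 CPM in 12ON livers, against 255, 307 and 263 CPM in group 12 (log2 -0.96 ± 0.12). For neither gene did the groups overlap. The rises numbered 7 without 12ON mouse 2, and 7 without mouse 3 of group 12.

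Of 27 translation factors, 17 rose and 2 fell (on total counts 24 higher and 0 lower, with the mitochondrial term 13 higher and 0 lower), with a median of 0.35. Without 12ON mouse 3 the falls numbered 1. Most of these changes were small, and Eif5a, the factor that carries the polyamine-derived residue hypusine, was the one that also passed a test against a 1.5-fold change, averaging 606 ± 42.4 CPM in 12ON livers and 297 ± 28.3 CPM in group 12. Eif4a1 and Eif4e, the helicase and cap-binding subunits of the complex that loads mRNA, rose 1.65-fold and 1.71-fold. The cytosolic chaperonin TRiC is a ring that folds actin and tubulin, and its changes were small: 11 of 14 TRiC and prefoldin genes rose and 1 fell (on total counts 14 higher and 0 lower, with the mitochondrial term 7 higher and 0 lower), with a median of 0.57. Cct7 was at 173, 209 and 178 CPM in 12ON livers, against 100.1, 113 and 116 CPM in group 12. No member of this list passed against a 1.5-fold change. Proteasome genes stood on the other side, with 0 of 26 higher and 10 lower, and a median of -0.21. Psmc2, an ATPase subunit of its cap, was at 67.5, 68.9 and 68.9 CPM in 12ON livers, against 95.9, 114 and 93 CPM in group 12 (log2 -0.56 ± 0.10). That direction turned with the scaling, since on total counts 14 proteasome genes were higher and 0 lower. Under the mitochondrial term 0 were higher and 0 lower, and the falls numbered 4 without mouse 2 of group 12.

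Genes of mitochondrial protein import and of the mitochondrial ribosome were read as a pair of lists. Of 24 import and chaperone genes, 20 rose and 1 fell (on total counts 23 higher and 0 lower, with the mitochondrial term 17 higher and 0 lower), with a median of 0.45, against 12 of 24 mitoribosome genes that rose and 0 that fell (on total counts 24 higher and 0 lower, with the mitochondrial term 8 higher and 0 lower), with a median of 0.20. Tomm20, the outer membrane receptor for precursor proteins, was at 134, 152 and 131 CPM in 12ON livers, against 57.1, 54.5 and 52.7 CPM in group 12 (log2 1.35 ± 0.09). Tomm40, the import channel, rose 1.97-fold, Timm50, the receptor of the inner membrane translocase, rose 1.73-fold, and Hspd1, the matrix chaperonin, averaged 784 ± 72.4 CPM in 12ON livers and 409 ± 32.6 CPM in group 12. The single fall in the list was Tfam, the packaging and transcription factor of mitochondrial DNA, at 47.7, 47.7 and 50.3 CPM in 12ON livers and 67.3, 60.2 and 83.1 CPM in group 12 (log2 -0.53 ± 0.12). It did not pass with the mitochondrial term, on total counts or against a 1.5-fold change, and without mouse 3 of group 12 the list held 2 falls. Of the mitoribosome, Mrps30 rose 1.95-fold and Mrpl19 rose 2.04-fold. Reads were counted without strand, and 37.8% of the Mrps30 and 36.0% of the Mrpl19 exon bases lie within a gene of the opposite strand. The gene opposite Mrps30 had 2534 counts in 12ON and 759 in group 12, and the gene opposite Mrpl19 had 1256 and 489. The part of these neighbours in both rises was not tested.

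Nuclear transport was one of the lists with the highest share of rises. Of 25 genes, 21 rose and 0 fell (on total counts 25 higher and 0 lower, with the mitochondrial term 16 higher and 0 lower), with a median of 0.77. Ipo5, an importin that carries ribosomal proteins into the nucleus, was at 116, 136 and 119 CPM in 12ON livers, against 48.1, 44.1 and 44 CPM in group 12 (log2 1.44 ± 0.10). The exporters Xpo5, which carries pre-miRNAs, and Cse1l, which returns importin alpha to the cytoplasm, rose 1.89-fold and 1.83-fold. The small GTPase Ran and its partner Ranbp1, which set the direction of transport, rose 1.93-fold and 2.07-fold. Nucleoporins of the pore's inner ring and outer scaffold rose as well, Nup205 by 1.55 ± 0.16, Nup93 by 1.44 ± 0.16 and Nup107 by 1.65 ± 0.21 on the log2 scale.

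Splicing factors rose with few exceptions. Of 30 genes, 27 rose and 0 fell (on total counts 29 higher and 0 lower), with a median of 0.55, and Hnrnpk (log2 0.19 ± 0.08), U2af1 (log2 -0.20 ± 0.11) and Sf3b1 (log2 0.11 ± 0.07) were without a call. Hnrnpa1, an RNA-binding protein that favours exon skipping, was at 198, 227 and 177 CPM in 12ON livers, against 66.8, 81.3 and 80.7 CPM in group 12 (log2 1.40 ± 0.14). The core ring of the spliceosomal snRNPs was represented by Snrpd1 (2.65-fold higher), Snrpd2 (1.85-fold) and Snrpf (2.24-fold). Of the 30, 18 rose and 0 fell with the mitochondrial term. In the list of the RNA exosome, tRNA and mRNA modification, 16 of 24 genes rose and 0 fell (on total counts 22 higher and 0 lower, with the mitochondrial term 13 higher and 0 lower), with a median of 0.48. Pus7, a pseudouridine synthase, was at 30.4, 36 and 32.2 CPM in 12ON livers, against 8.72, 6.93 and 9.11 CPM in group 12 (log2 1.99 ± 0.13). Nsun2, which methylates cytosines in tRNA, averaged 235 ± 9.89 CPM in 12ON livers and 79.5 ± 4.32 CPM in group 12. Polr3g, an alternative subunit of RNA polymerase III typical of undifferentiated cells, rose 2.53-fold, and the exosome genes Exosc8 and Dis3 rose 2.48-fold and 2.36-fold. The methyltransferase subunits Mettl3 (log2 -0.18 ± 0.11) and Mettl1 (log2 -0.40 ± 0.26) were without a call.

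The partners of MYC itself changed in both directions. Of 19 genes of the MYC and MAX network, 11 rose and 3 fell (on total counts 14 higher and 0 lower, with the mitochondrial term 9 higher and 3 lower), with a median of 0.33. The largest rises were in cofactors that MYC recruits to chromatin. Ruvbl1, an ATPase of chromatin remodelling complexes, was at 51.9, 64 and 56.9 CPM in 12ON livers, against 18.8, 18.8 and 19 CPM in group 12 (log2 1.61 ± 0.14), its partner Ruvbl2 rose 2.6-fold, and the histone acetyltransferase gene Kat2a rose 2.75-fold. Mxi1, a MAX partner that opposes MYC, rose 1.85-fold. Max rose by 0.37 ± 0.09 on the log2 scale, which did not pass against a 1.5-fold change. The glucose-sensing factor gene Mlxipl and its partner Mlx were lower, at log2 -0.62 ± 0.15 and -0.69 ± 0.11, and neither call held on total counts. Mycl, a paralog of Myc, averaged 4.13 ± 1.04 CPM in 12ON livers and 8.77 ± 2.67 CPM in group 12, and Mycn, without a call, was at 0.148, 0.154 and 0.302 CPM in 12ON livers, against 0.156, 0.193 and 0.302 CPM in group 12.

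**Figure D2:**
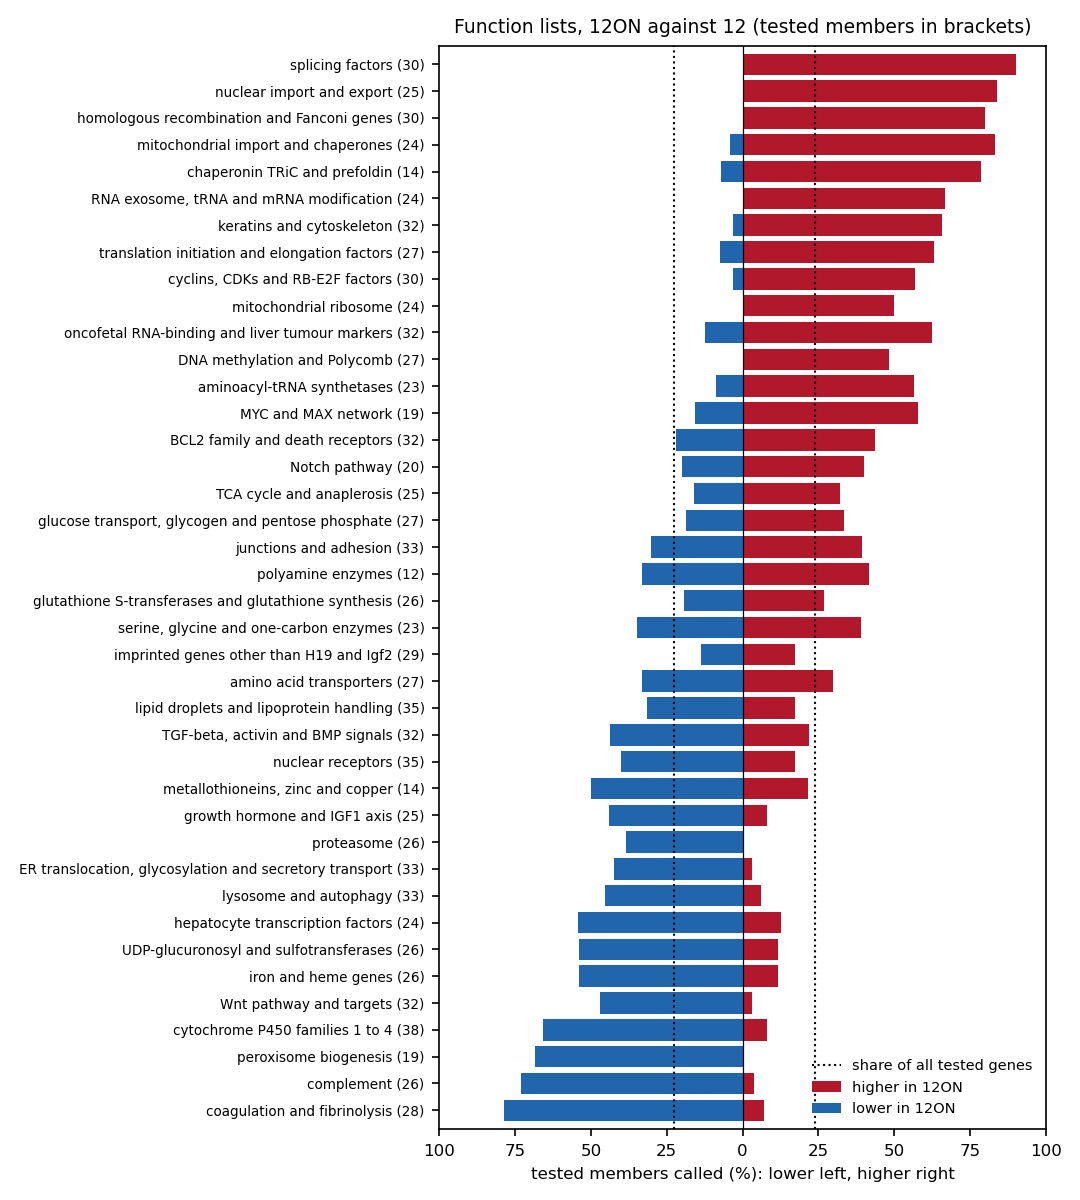
Bars give, for each of 40 function lists, the share of tested members that were higher (red, to the right) or lower (blue, to the left) in 12ON than in group 12 at an adjusted p under 0.05, with the number tested in brackets. Dotted lines mark 24.0% and 22.6%, the shares over all tested genes, and splicing, nuclear transport and mitochondrial import lists reach furthest to the right while coagulation, complement and peroxisome lists reach furthest to the left. On total counts the proteasome, lysosome, Wnt and several other lists turned to more rises than falls, as given with each.

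Some lists lay near the shares over all tested genes, which were 24.0% higher and 22.6% lower. Citric acid cycle genes were 32% higher and 16% lower, genes of glucose transport, glycogen and the pentose phosphate path 33.3% higher and 18.5% lower, glutathione genes 26.9% higher and 19.2% lower, and imprinted genes 17.2% higher and 13.8% lower. Lipid droplet and lipoprotein genes were 17.1% higher and 31.4% lower, and amino acid transporter genes 29.6% higher and 33.3% lower. The counts of these lists below are given as values only. In some other lists 1 direction alone lay near: 21.9% of TGF-beta, activin and BMP genes were higher, 21.9% of BCL2 family and death receptor genes lower, and 20% of Notch genes lower.

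The enzymes of serine, glycine and one-carbon metabolism changed in both directions. Of 23 genes, 9 rose and 8 fell, and their median was -0.31. Without 12ON mouse 2 the falls numbered 5, and on total counts 11 genes were higher and 2 lower. Mthfd1l and Mthfd2, which turn over formyl and methylene folate inside mitochondria, rose. Mthfd1l was at 40.0, 48.4 and 36.1 CPM in 12ON livers, against 1.3, 1.67 and 2.61 CPM in group 12 (log2 4.42 ± 0.27, adjusted p = 6.59e-08), a 21.4-fold difference with no overlap, and Mthfd2 rose 3.03-fold. Phgdh and Psat1, which make serine from a glycolytic intermediate, varied more between mice. Phgdh was at 44.5, 74.2 and 20.4 CPM in 12ON livers, against 1.35, 3.82 and 1.62 CPM in group 12, and Psat1 at 115, 125 and 48.1 CPM in 12ON livers, against 5.76, 23 and 6.35 CPM in group 12. Within 12ON, mouse 3 had the lowest level of both, and within group 12 it was mouse 2 that had the highest. Without mouse 2 of group 12 the log2 fold change of Phgdh was 4.94 in place of 4.34, and that of Psat1 was 3.98 in place of 3.03.

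Genes of the methyl cycle, which makes and recycles S-adenosylmethionine, were next. Cbs, which commits homocysteine to cysteine synthesis and whose promoter is printed above, was at 183, 150.4 and 195 CPM in 12ON livers, against 890.2, 1115 and 1027 CPM in group 12 (log2 -2.52 ± 0.21, adjusted p = 7.47e-07). Ahcy, which splits S-adenosylhomocysteine, fell 2.72-fold. Mat2a, the form of methionine adenosyltransferase found outside mature liver, was higher at 146, 159.6 and 165 CPM in 12ON livers, against 52.5, 47 and 48.8 CPM in group 12 (log2 1.67 ± 0.13). Mat1a, the hepatocyte form of that enzyme, averaged 1033 ± 362 CPM in 12ON livers and 2079 ± 294 CPM in group 12 (log2 -1.01 ± 0.36, adjusted p = 0.0308), a fall that missed the threshold without 12ON mouse 2 (adjusted p = 0.13), without 12ON mouse 3 (0.0757), without mouse 1 of group 12 (0.0882) and without its mouse 2 (0.0578). With the mitochondrial term 6 of the list were higher and 2 lower, and Ahcy and Mat1a were not among the calls. Shmt2, the mitochondrial serine hydroxymethyltransferase, was without a call at 139.9, 141 and 130.0 CPM in 12ON livers and 158, 130.0 and 151 CPM in group 12.

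**Figure D3:**
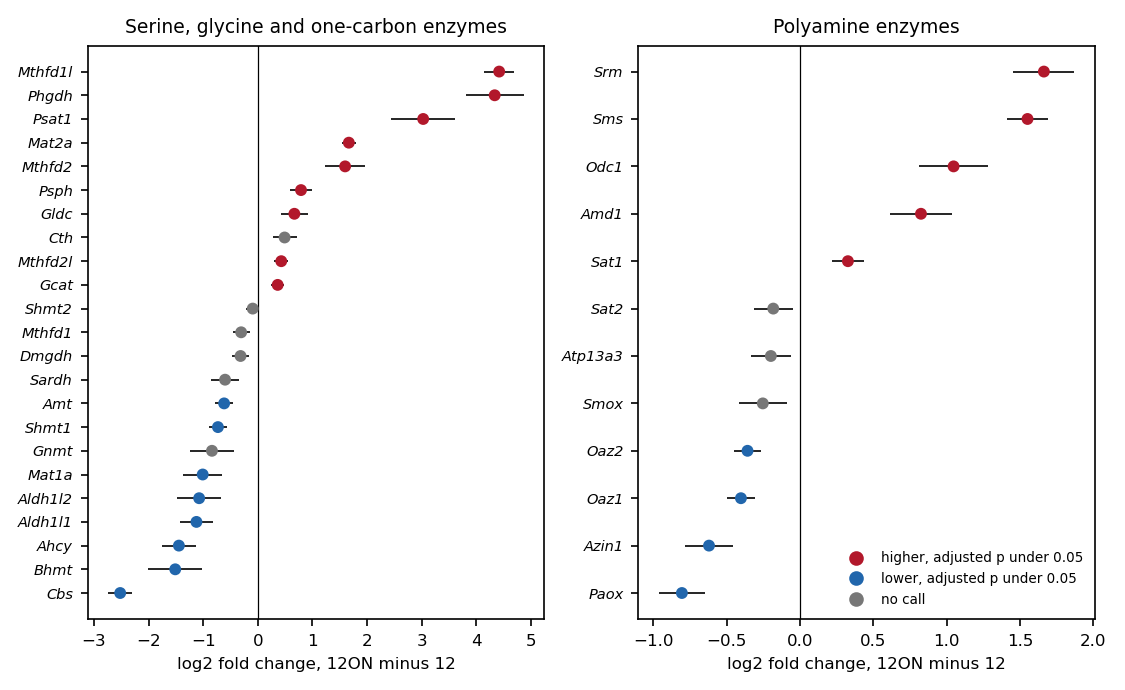
Points give the log2 fold change of 12ON minus 12 for each tested member of the one-carbon list (left panel) and the polyamine list (right panel), with bars of 1 standard error. Mthfd1l, Phgdh and Psat1 lie at 3.03 to 4.42, Cbs at -2.52, and the polyamine synthases Srm and Sms at 1.66 and 1.55.

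Of 12 polyamine genes 5 rose and 4 fell (on total counts 6 higher and 0 lower, with the mitochondrial term 4 higher and 0 lower). Srm and Sms, which make spermidine and spermine, rose 3.16-fold and 2.93-fold, and Srm was at 66.4, 89.7 and 74.1 CPM in 12ON livers, against 21.6, 31 and 20.2 CPM in group 12. Odc1, the entry enzyme and a classical MYC target, averaged 123 ± 26.9 CPM in 12ON livers and 59.5 ± 21.5 CPM in group 12. Oaz1 and Oaz2, the antizymes that send ornithine decarboxylase to degradation, and Paox, which oxidises acetylated polyamines, were lower by small amounts (log2 -0.40 ± 0.09, -0.36 ± 0.09 and -0.81 ± 0.15), and on total counts Oaz1 and Oaz2 turned to 0.09 and 0.13. No fall in this list held with the mitochondrial term or on total counts.

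Of 27 tested amino acid transporter genes 8 rose (29.6%) and 9 fell (33.3%), with a median of -0.33, against 24.0% and 22.6% of all tested genes. With the mitochondrial term 5 were higher and 7 lower, and on total counts 10 were higher and 5 lower. Slc7a1, the arginine and lysine carrier of proliferating cells that adult hepatocytes hardly express, was at 22.9, 22.2 and 18.7 CPM in 12ON livers, against 3.53, 3.11 and 3.4 CPM in group 12 (log2 2.67 ± 0.24). Slc7a6, which exchanges arginine for neutral amino acids, rose 3.53-fold. Slc38a3, the glutamine carrier of mature liver, was at 552, 428 and 424 CPM in 12ON livers, against 1595, 984 and 1172 CPM in group 12 (log2 -1.42 ± 0.24), and Slc1a2, a glutamate carrier of hepatocytes around the central vein, was at 6.74, 1.69 and 3.7 CPM in 12ON livers, against 75, 63.9 and 54.3 CPM in group 12 (log2 -3.98 ± 0.69). The betaine carrier gene Slc6a12 fell 2.18-fold and the lysosomal proton-coupled carrier gene Slc36a1 fell 1.88-fold. The glutamine carrier Slc1a5, often named with MYC in tumours, was without a call (log2 -0.53 ± 0.22, adjusted p = 0.057).

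Gls2, which encodes an enzyme that releases glutamate from glutamine in hepatocytes, averaged 179.6 ± 13.1 CPM in 12ON livers and 298 ± 79.2 CPM in group 12 (log2 -0.73 ± 0.28, adjusted p = 0.042), a call that ended with the mitochondrial term and when any single library other than mouse 2 of group 12 was left out (adjusted p from 0.0704 to 0.165). The NADP-dependent isocitrate dehydrogenases went opposite ways: the mitochondrial Idh2 was at 252, 257 and 275 CPM in 12ON livers, against 80.3, 75.6 and 96.5 CPM in group 12 and the cytosolic Idh1 at 254, 187 and 275 CPM in 12ON livers, against 457, 458 and 541 CPM in group 12. Over the 25 genes of the citric acid cycle and its feeder reactions, 8 rose and 4 fell (on total counts 19 higher and 1 lower, with the mitochondrial term 5 higher and 1 lower), with a median of 0.11. The falls numbered 1 without 12ON mouse 1, and 2 without 12ON mouse 3 or without mouse 3 of group 12. Of 27 genes of glucose transport, glycogen and the pentose phosphate path, 9 rose and 5 fell (on total counts 17 higher and 1 lower), and with the mitochondrial term 2 rose and 0 fell. The falls numbered 2 or 3 without any 1 of the 12ON livers or without mouse 1 or 3 of group 12. The 2 rises that remained with the mitochondrial term were Tkt, the transketolase, at 324, 339.8 and 346 CPM in 12ON livers, against 155, 145 and 172 CPM in group 12 (log2 1.10 ± 0.09), and Pygb, the brain form of glycogen phosphorylase, at 81.9, 62.7 and 82.9 CPM in 12ON livers, against 18.1, 18.3 and 23.3 CPM in group 12 (log2 1.93 ± 0.19).

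Cyclins, CDKs and the RB-E2F factors control the passage from G1 to S phase. Of 30 tested cyclin, CDK and RB-E2F genes, 17 rose and 1 fell (on total counts 26 higher and 0 lower, with the mitochondrial term 13 higher and 0 lower), with a median of 0.87. The fall was lost without 12ON mouse 2 or 3 or without mouse 1 of group 12. Ccne1, the cyclin that starts DNA replication with CDK2, was at 10.6, 14.3 and 12.8 CPM in 12ON livers, against 1.19, 1.89 and 2.02 CPM in group 12 (log2 2.85 ± 0.36). Ccnd2, a D-type cyclin, rose 3.26-fold with the highest level in 12ON mouse 2, while Ccnd1, the cyclin of early liver regeneration, was without a call (log2 -0.06 ± 0.44). Cdk6, a partner of D-type cyclins, averaged 49.1 ± 1.5 CPM in 12ON livers and 22.2 ± 3.26 CPM in group 12, and Cdk4 (log2 -0.20 ± 0.10) was without a call. Reads were counted without strand, and 18.6% of the Cdk4 and 21.3% of the Ccnd1 exon bases lie within a gene of the opposite strand. The gene opposite Cdk4 had 17983 counts in 12ON and 26473 in group 12, and its part in the Cdk4 values was not tested. The activator gene E2f1 rose 2.8-fold, E2f3 rose 2.51-fold, and Tfdp1, the shared partner of E2F proteins, rose 2.57-fold. Mybl1, which encodes the A-MYB factor known from male germ cells, was at 14.1, 16.6 and 14.5 CPM in 12ON livers, against 0.727, 0.449 and 0.582 CPM in group 12 (log2 4.71 ± 0.49), and its paralog Mybl2, of cycling cells in general, rose 5.84-fold.

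Genes of homologous recombination and the Fanconi anaemia pathway, which repair broken and crosslinked DNA during S phase, were higher in most of the list. Of 30 genes, 24 rose and 0 fell (on total counts 29 higher and 0 lower), with a median of 1.17. Brca1 was at 9.49, 12.1 and 10.4 CPM in 12ON livers, against 3.11, 3.24 and 2.54 CPM in group 12 (log2 1.85 ± 0.24). Fancd2, the protein that is ubiquitinated at a stalled fork, rose 7.71-fold, and the helicase gene Blm rose 4.08-fold. The kinase that senses stalled forks, encoded by Atr, rose 2.53-fold, and Chek1, its effector, was at 6.34, 8.62 and 9.83 CPM in 12ON livers, against 1.04, 0.931 and 0.625 CPM in group 12 (log2 3.29 ± 0.45). H2afx, the histone that marks broken DNA, rose 2.64-fold. The list had 16 rises and 0 falls with the mitochondrial term. Of 27 DNA methylation and Polycomb genes, 13 rose and 0 fell (on total counts 21 higher and 0 lower, with the mitochondrial term 10 higher and 0 lower). Among those that rose, Dnmt1, which copies methylation to the new strand, averaged 45.7 ± 3.89 CPM in 12ON livers and 17.9 ± 1.04 CPM in group 12, the remodeller gene Hells rose 9.64-fold, and Ezh2, the histone H3 methyltransferase of Polycomb, was at 19.6, 22.2 and 18.8 CPM in 12ON livers, against 6.75, 7.35 and 6.91 CPM in group 12 (log2 1.53 ± 0.20). Bmi1 (log2 0.04 ± 0.09), Ring1 (log2 -0.25 ± 0.13) and Rnf2 (log2 0.13 ± 0.08), of the other Polycomb complex, were without a call.

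The BCL2 family and the death receptors set whether a cell starts apoptosis. Of 32 BCL2 family, caspase and death receptor genes, 14 rose and 7 fell (on total counts 19 higher and 2 lower), with a median of 0.26. Hrk, a BH3-only protein best known in neurons, was at 6.0, 9.3 and 6.39 CPM in 12ON livers, against 0.0519, 0.128 and 0.194 CPM in group 12 (log2 5.66 ± 0.51). The BH3-only genes Bik and Bbc3, the second known as PUMA, rose 5.72-fold and 2.27-fold, and Bok, a BAX-like effector, rose 2.02-fold. The death receptor gene Tnfrsf10b rose 3.02-fold and Tnfrsf12a, the receptor for TWEAK on liver progenitor cells, was at 43.4, 48.3 and 49.1 CPM in 12ON livers, against 5.29, 8.66 and 8.38 CPM in group 12 (log2 2.64 ± 0.28). On the lower side the changes were small, such as that of Xiap, which encodes a caspase inhibitor (log2 -0.78 ± 0.13). None of the falls passed against a 1.5-fold change, and with the mitochondrial term 7 of the list were higher and 5 lower.

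**Figure D4:**
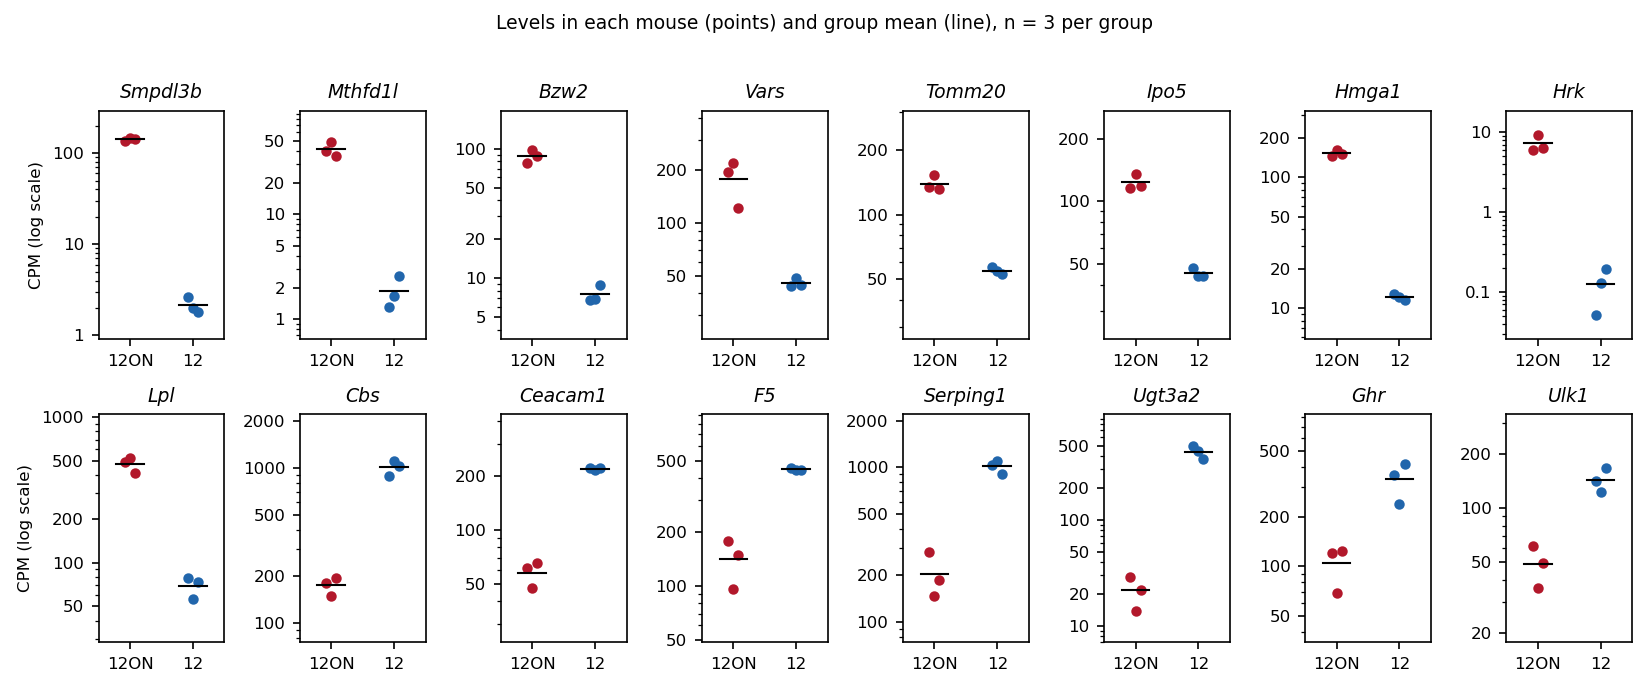
Points give the level of each mouse in CPM (log scale) for 16 genes described in the text, 12ON left of group 12, and lines give group means. In none of the 16 panels do the groups overlap, and 9 of the genes are higher and 7 lower in 12ON. Over all tested genes the groups did not overlap for 30.0% on the higher side and 28.2% on the lower side.

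Most plasma proteins of coagulation are made by hepatocytes. Of 28 tested genes of coagulation and fibrinolysis, 2 rose and 22 fell (on total counts 2 higher and 17 lower), with a median of -0.91. F5, the cofactor that speeds thrombin formation, was at 177, 96.5 and 148 CPM in 12ON livers, against 455, 445 and 445 CPM in group 12 (log2 -1.67 ± 0.20), and the lowest 12ON level was in mouse 2. F11 was at 36.6, 22.2 and 27.5 CPM in 12ON livers, against 102, 128 and 89.8 CPM in group 12 (log2 -1.88 ± 0.24). Procoagulant and anticoagulant genes fell together: F9 and F7, of the clotting cascade, fell 2.53-fold and 2.28-fold, while Proc, which encodes the anticoagulant protein C, and Serpind1, an inhibitor of thrombin, fell 2.08-fold and 1.82-fold. The 2 that rose were Plat, a plasminogen activator, and Plaur, the urokinase receptor, neither of them typical of hepatocytes. Plat averaged 4.71 ± 0.188 CPM in 12ON livers and 1.05 ± 0.272 CPM in group 12. With the mitochondrial term 0 of the list were higher and 12 lower.

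In the complement list, falls also outnumbered rises, with 1 of 26 tested genes higher and 19 lower (on total counts 3 higher and 14 lower), and a median of -1.07. Serping1, the inhibitor of C1, was at 283, 147 and 186 CPM in 12ON livers, against 1039.9, 1106 and 907 CPM in group 12 (log2 -2.31 ± 0.30). Mbl2, a lectin that starts the lectin pathway, was at 95.9, 57.4 and 108 CPM in 12ON livers, against 392, 376 and 374 CPM in group 12 (log2 -2.13 ± 0.30), Cfi, which cleaves C3b, fell 2.24-fold, and C8g, of the membrane attack complex, fell 2.87-fold. Clu, the gene for clusterin, a secreted chaperone that blocks that complex, was the 1 rise (log2 0.79 ± 0.20). The genes C1qa (log2 -0.27 ± 0.19), C1qb (log2 -0.08 ± 0.17) and C1qc (log2 -0.21 ± 0.18), made by macrophages, were without a call. The mitochondrial term left 2 rises and 5 falls. For both lists, the summed hepatocyte markers, of which Alb made up most, differed in the same direction, as given above, and their part was not tested.

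By absolute level, a few abundant transcripts carried much of the fall. The 15 largest falls in mean CPM made up 41.1% of the summed falls over all genes, and the 15 largest rises made up 30.5% of the summed rises. With TMM scaling the falls summed to -474317 CPM and the rises to 128672 CPM, and these totals depend on the scaling. Some reads entered these sums more than once. A gene among the 15 falls shares 63.5% of the exon bases of Trf, and short genes among the 15 rises lie within the span of H19. Some of the 15 rises, mitochondrial genes among them, were without a call. Apart from albumin and the gene that overlaps Trf, the largest falls were in Trf (transferrin), Hpx (hemopexin), C3, Apoe and Hp (haptoglobin). The call of Trf was lost on total counts. Apoe, the ligand that clears lipoprotein remnants, averaged 8843 ± 759 CPM in 12ON livers and 19086 ± 1249 CPM in group 12. Pzp, a broad protease inhibitor of mouse plasma, was at 1993, 1227 and 1673 CPM in 12ON livers, against 7049, 9497 and 5496 CPM in group 12 (log2 -2.17 ± 0.22). The fibrinogen genes Fga, Fgb and Fgg fell 4.81-fold, 4.52-fold and 4.75-fold, and without mouse 2 of group 12 the log2 fold changes of Fga and Fgb were -1.64 and -1.54 in place of -2.27 ± 0.39 and -2.18 ± 0.39. Among the largest rises, after the fetal genes H19 and Igf2, was Gsn, which encodes gelsolin, an actin-severing protein, at 893, 1365 and 1395 CPM in 12ON livers, against 24.6, 27.7 and 37.5 CPM in group 12 (log2 5.34 ± 0.44).

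Cytochrome P450 enzymes oxidise drugs and steroids. Of 38 tested cytochrome P450 genes and their reductase, 3 rose and 25 fell (on total counts 3 higher and 21 lower), with a median of -1.30. Cyp2j5, an epoxygenase of arachidonic acid, was at 161, 140.2 and 190.4 CPM in 12ON livers, against 368, 475 and 403 CPM in group 12 (log2 -1.34 ± 0.14). Cyp2r1, which hydroxylates vitamin D at carbon 25, fell 3.69-fold, and Cyp4v3, a fatty acid hydroxylase, averaged 229 ± 13.6 CPM in 12ON livers and 709 ± 43.6 CPM in group 12. Members of dense gene clusters also fell, Cyp2c40 5.89-fold and Cyp2d10 3.22-fold, and their values are uncertain because reads shared with near-identical copies were not counted. With the mitochondrial term 0 of the list were higher and 15 lower, and 1 was higher without 12ON mouse 1 or 3 or without mouse 2 or 3 of group 12.

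Conjugating enzymes attach sugars or sulfate to such products. Of 26 UDP-glucuronosyltransferase and sulfotransferase genes, 3 rose and 14 fell (on total counts 6 higher and 11 lower, with the mitochondrial term 2 higher and 11 lower), with a median of -0.95. Ugt3a2, which uses sugars other than glucuronic acid, was at 28.8, 13.9 and 21.9 CPM in 12ON livers, against 498, 450.2 and 373 CPM in group 12 (log2 -4.35 ± 0.47), and its neighbour Ugt3a1 was at 5.43, 2.33 and 5.43 CPM in 12ON livers, against 79.9, 69.7 and 63 CPM in group 12 (log2 -4.00 ± 0.43). In each 12ON liver both genes were far below any liver of group 12, and mouse 2 had the lowest level of both. Ugt2a3 fell 5.24-fold. The Ugt1a genes share exons, so their counts, which fell together, are not separate measurements. Ugdh, which makes the sugar donor UDP-glucuronic acid that these enzymes and matrix synthesis use, rose, at 310.5, 299 and 323 CPM in 12ON livers, against 81.3, 65.7 and 85.7 CPM in group 12 (log2 2.00 ± 0.24). Among 26 glutathione genes, 7 rose and 5 fell (on total counts 14 higher and 3 lower, with the mitochondrial term 4 higher and 3 lower), with a median of 0.13. Gstt1 was at 58.5, 62.9 and 72 CPM in 12ON livers, against 194, 162 and 209 CPM in group 12 and Gstz1, which acts in tyrosine breakdown, fell 2.18-fold. Ggt1, the gamma-glutamyl transferase that fetal and preneoplastic hepatocytes express, was at 11.9, 8.44 and 5.55 CPM in 12ON livers, against 0.208, 0.385 and 0.194 CPM in group 12 (log2 5.03 ± 0.86).

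Of 24 tested hepatocyte transcription factor genes, 3 rose and 13 fell, with a median of -0.47, and on total counts 7 were higher and 4 lower. Without mouse 1 of group 12 the falls numbered 7, and without 12ON mouse 2 the rises numbered 1. Hnf4a, the nuclear receptor that sustains most hepatocyte genes, was at 497, 426 and 434 CPM in 12ON livers, against 718, 867 and 748 CPM in group 12 (log2 -0.78 ± 0.13). Onecut2 fell 2.11-fold, and Tbx3, which marks hepatocytes around the central vein and their fetal precursors, was at 7.24, 6.16 and 5.77 CPM in 12ON livers, against 31.5, 18 and 24.8 CPM in group 12 (log2 -1.95 ± 0.25). Sox4, a factor of progenitor and tumour cells, was the largest rise, at 32.9, 37.5 and 29.4 CPM in 12ON livers, against 3.94, 3.4 and 4.67 CPM in group 12 (log2 3.04 ± 0.39). With the mitochondrial term 1 of the list was higher and 4 lower. Of 35 nuclear receptor and coactivator genes, 6 rose and 14 fell (with the mitochondrial term 2 higher and 5 lower), against 8 higher and 5 lower on total counts. The rises numbered 3 without 12ON mouse 2 or 3 or without mouse 1 or 2 of group 12. Ppara, the receptor that switches on fatty acid oxidation, was at 39.5, 32.4 and 42 CPM in 12ON livers, against 73.9, 91.7 and 104 CPM in group 12 (log2 -1.24 ± 0.24), while Ppargc1a, the coactivator of mitochondrial biogenesis, was at 18.6, 16.5 and 15.6 CPM in 12ON livers, against 4.72, 6.35 and 9.26 CPM in group 12 (log2 1.30 ± 0.24).

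Growth hormone acts on hepatocytes through its receptor and STAT5 to release IGF1. Of 25 genes of this axis, 2 rose and 11 fell (on total counts 5 higher and 6 lower, with the mitochondrial term 1 higher and 6 lower), with a median of -0.57. The rises numbered 1 without 12ON mouse 1 or 2 or without any 1 liver of group 12. Ghr, the receptor, was at 121, 68.9 and 124 CPM in 12ON livers, against 359, 237 and 418 CPM in group 12 (log2 -1.69 ± 0.27), Stat5a, a transducer, fell 2.76-fold, and Igf1, the circulating growth factor it induces, was at 181, 128 and 216 CPM in 12ON livers, against 472, 459 and 471 CPM in group 12 (log2 -1.42 ± 0.24). Igfals, which holds IGF1 in the blood complex, fell 3.04-fold, and Prlr, the prolactin receptor, was at 34.4, 23.7 and 50.4 CPM in 12ON livers, against 268, 218 and 275 CPM in group 12 (log2 -2.81 ± 0.50). Igf2r, the receptor that removes IGF2 to lysosomes and is read from the maternal copy, was at 73.6, 71.2 and 76 CPM in 12ON livers, against 39.1, 39.2 and 38.3 CPM in group 12 (log2 0.92 ± 0.12). The receptor gene Igf1r (log2 0.16 ± 0.29) and the feedback inhibitors Socs2 (log2 -0.32 ± 0.52) and Cish (log2 -0.46 ± 0.71), both induced by growth hormone, were without a call.

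Of 32 tested Wnt pathway genes and targets, 1 rose and 15 fell (with the mitochondrial term 0 higher and 8 lower), with a median of -0.56, and on total counts 11 were higher and 5 lower. Without 12ON mouse 3 the falls numbered 9, and the rise was lost without 12ON mouse 2 or 3 or without mouse 1 or 2 of group 12. The target and effector genes Lef1 and Sp5 were low in both groups: Lef1 was at 0.314, 0.132 and 0.189 CPM in 12ON livers, against 1.5, 2.15 and 2.39 CPM in group 12 (log2 -3.23 ± 0.39) and Sp5 at 0.166, 0.154 and 0.226 CPM in 12ON livers, against 1.04, 0.899 and 1.57 CPM in group 12 (log2 -2.68 ± 0.46). Notum, a Wnt-inactivating enzyme and target gene of central hepatocytes, was at 9.68, 14.7 and 11.4 CPM in 12ON livers, against 37.5, 15.9 and 39.7 CPM in group 12 (log2 -1.38 ± 0.36), with 1 liver of group 12 close to the 12ON range. Tcf7 and the receptor gene Fzd8 fell 2.42-fold and 2.46-fold. Endothelial and B cell markers fell in the same libraries, with the values given above, and their part was not tested.

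Jag2, a Notch ligand, was at 20.2, 27.5 and 15.2 CPM in 12ON livers, against 0.259, 0.16 and 0.409 CPM in group 12 (log2 6.15 ± 0.69), and Hey1, a target of the pathway, rose 2.57-fold. Of 20 Notch genes 8 rose and 4 fell (on total counts 14 higher and 0 lower, with the mitochondrial term 6 higher and 2 lower), while Jag1 (log2 0.12 ± 0.17), the ligand of bile duct formation, and Hes1 (log2 0.60 ± 0.41) were without a call. Bmp8b, a BMP ligand known from germ cells and brown fat, was at 30.0, 39.6 and 28.7 CPM in 12ON livers, against 1.45, 1.99 and 2.41 CPM in group 12 (log2 4.03 ± 0.36). Of 32 tested TGF-beta, activin and BMP genes 7 rose and 14 fell (with the mitochondrial term 4 higher and 4 lower), against 11 higher and 5 lower on total counts. The rises numbered 4 without 12ON mouse 2 or without mouse 1 of group 12. Bmp2, which liver endothelium secretes to set iron balance, fell 2.35-fold, Eng, an endothelial coreceptor, fell 1.87-fold and Smad6, an inhibitor downstream of BMP, fell 2.13-fold. The 7 endothelial markers fell in the same livers, as given above, and the part of that cell type was not tested.

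Tfrc, the transferrin receptor that takes up iron and is a MYC target in other cells, was at 95.5, 86.1 and 145 CPM in 12ON livers, against 24.7, 39.6 and 23.9 CPM in group 12 (log2 1.89 ± 0.31), the largest of 3 rises by fold among 26 iron and heme genes, of which 14 fell (with the mitochondrial term 1 higher and 4 lower). On total counts 5 of them were higher and 3 lower. Hpx, which carries heme in plasma, and Trf led the falls by abundance, and Hfe, which senses iron, was lower (log2 -0.72 ± 0.10). Of 14 zinc, copper and metallothionein genes 3 rose and 7 fell (on total counts 4 higher and 4 lower, with the mitochondrial term 2 higher and 4 lower). Slc39a4, the zinc importer of the gut and of liver tumours, was at 148, 166 and 182 CPM in 12ON livers, against 45.3, 45.2 and 56.8 CPM in group 12 (log2 1.75 ± 0.28), Slc31a1, the copper importer, fell 1.89-fold, and Slc30a10, the manganese exporter, was at 13.6, 10.1 and 16.6 CPM in 12ON livers, against 74.1, 107 and 52.2 CPM in group 12 (log2 -2.53 ± 0.40). The metallothionein genes Mt1 and Mt2, whose proteins bind zinc and copper, were without a call. Mt1 was at 235, 91.3 and 53.8 CPM in 12ON livers, against 389.9, 427 and 59.9 CPM in group 12, so the groups overlapped, and Mt2 spread likewise (log2 -1.74 ± 0.996).

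Of 19 peroxisome genes 0 rose and 13 fell (with the mitochondrial term 0 higher and 7 lower), with a median of -0.52. Pex3, which places membrane proteins in peroxisomes, was at 14.4, 13.3 and 14.2 CPM in 12ON livers, against 27.6, 23.2 and 27.9 CPM in group 12 (log2 -0.91 ± 0.11), and Slc27a2, which activates very long-chain fatty acids, fell 2.27-fold. On total counts 1 of the list was higher and 2 lower. Of 33 lysosome and autophagy genes, 2 rose and 15 fell (with the mitochondrial term 1 higher and 6 lower), against 13 higher and 5 lower on total counts, and 1 rose without 12ON mouse 1. Ulk1, the kinase that starts autophagy, was at 61.8, 35.7 and 49.4 CPM in 12ON livers, against 142, 124 and 168 CPM in group 12 (log2 -1.56 ± 0.26), Atg5, which extends the autophagosome, fell 1.82-fold, and Lamp2, of the lysosomal membrane, was at 411, 337 and 397 CPM in 12ON livers, against 791, 758 and 741 CPM in group 12 (log2 -0.999 ± 0.13). Ctsd, a lysosomal protease, was one of the 2 rises (log2 0.53 ± 0.10). Of 33 genes of endoplasmic reticulum translocation and secretory transport, 1 rose and 14 fell, against 11 higher and 3 lower on total counts. With the mitochondrial term 0 were higher and 3 lower. Leaving out mouse 2 of group 12 gave 4 higher and 8 lower, and the 1 rise was lost without 12ON mouse 2 or 3 or without mouse 1 or 3 of group 12. Mcfd2, part of the receptor that exports coagulation factors V and VIII from the endoplasmic reticulum, was at 129, 121 and 144 CPM in 12ON livers, against 307, 473 and 310.4 CPM in group 12 (log2 -1.47 ± 0.16).

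Lpl, the lipoprotein lipase of muscle and fat that adult hepatocytes hardly express, was at 494, 525 and 415 CPM in 12ON livers, against 78.6, 56.6 and 73.1 CPM in group 12 (log2 2.78 ± 0.28). Plin4, a coat protein of lipid droplets, rose 2.76-fold. In the other direction Lrp1, a receptor for remnant lipoproteins, was at 461, 365 and 369 CPM in 12ON livers, against 875, 961 and 797 CPM in group 12 (log2 -1.14 ± 0.19), Agpat2, of glycerolipid synthesis, fell 1.78-fold and Lipe, the hormone-sensitive lipase, fell 2.2-fold. Over the whole list of 35 tested genes 6 rose (17.1%) and 11 fell (31.4%), against 24.0% and 22.6% of all tested genes. With the mitochondrial term 2 were higher and 8 lower, and on total counts 10 were higher and 6 lower.

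Of 32 tested genes in a list of oncofetal RNA-binding proteins and tumour markers, 20 rose and 4 fell (on total counts 21 higher and 2 lower, with the mitochondrial term 13 higher and 3 lower), with a median of 1.44. Without 12ON mouse 3 or without mouse 2 of group 12 the falls numbered 2. The list was drawn up with the rise of fetal genes already known, so its direction is no independent evidence. Hmga1, a chromatin architecture protein of embryos and tumours, was at 144, 162 and 151 CPM in 12ON livers, against 12.8, 12.2 and 11.6 CPM in group 12 (log2 3.65 ± 0.30). Tspan8, a tetraspanin of epithelial tumours, rose 14-fold, and Abcb1b, a drug efflux pump, rose 3.24-fold. Bex1 and Bex2, small adaptor proteins known from neurons, were higher as well. Bex1 was at 15, 6.68 and 16.4 CPM in 12ON livers, against 0.104, 0.16 and 0.237 CPM in group 12. Bex2 was at 4.73, 3.69 and 5.21 CPM in 12ON livers, against 0.0519, 0.128 and 0.0862 CPM in group 12, and neither gene's groups overlapped. Pkm, the pyruvate kinase of fetal and growing tissue, averaged 129 ± 30.1 CPM in 12ON livers and 61.2 ± 6.13 CPM in group 12. The let-7 regulator Lin28a (log2 -0.02 ± 0.49) and the architecture gene Hmga2 (log2 -0.83 ± 0.42) were without a call. Imprinted genes outside the H19 and Igf2 locus went both ways: of 29 tested, 5 rose and 4 fell (with the mitochondrial term 2 higher and 3 lower), with a median of -0.04, against 14 higher and 1 lower on total counts. The rises numbered 2 without 12ON mouse 3 and 3 without any 1 liver of group 12.

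Of 32 keratin and cytoskeleton genes, 21 rose and 1 fell (on total counts 27 higher and 0 lower, with the mitochondrial term 12 higher and 0 lower), with a median of 0.75. Stmn1, which destabilises microtubules in dividing cells, was at 61.6, 85.4 and 52.9 CPM in 12ON livers, against 11.7, 9.56 and 9.65 CPM in group 12 (log2 2.70 ± 0.34). The lamin genes Lmnb1 and Lmnb2 rose 3.55-fold and 2.74-fold, and the actin gene Actg1 rose 2.19-fold. The tubulin genes Tubb5 and Tuba1b rose 2.18-fold and 2.18-fold, with values that are uncertain between near-identical copies. Krt7, a keratin of bile ducts, rose 2.72-fold, and is itself one of the 7 cholangiocyte markers. Of 33 tested junction and adhesion genes, 13 rose and 10 fell (on total counts 18 higher and 8 lower, with the mitochondrial term 7 higher and 8 lower). Ocln, a tight junction protein, was at 32.9, 39.7 and 29.6 CPM in 12ON livers, against 15.6, 12.1 and 12.3 CPM in group 12 (log2 1.36 ± 0.14) and Cldn7, a claudin of ducts and other epithelia, rose 7.19-fold. Cldn2, the claudin of central hepatocytes, was at 57.6, 37.7 and 64.1 CPM in 12ON livers, against 194, 181 and 173 CPM in group 12 (log2 -1.78 ± 0.26), and the gap junction genes Gjb1 and Gjb2, the connexins of the hepatocyte, fell 2.03-fold and 2.95-fold. Cldn5, of endothelial junctions, fell 1.98-fold, and Cdh5, itself one of the 7 endothelial markers, fell 2.06-fold.

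Beyond the lists, the genes ranked 13 to 42 by fold change held several that are little known in liver. Dctd, which deaminates dCMP on the way to thymidine nucleotides, was at 13.2, 18.8 and 13 CPM in 12ON livers, against 0.311, 0.193 and 0.151 CPM in group 12 (log2 6.20 ± 0.57). Ubd, a ubiquitin-like modifier also called FAT10, was at 24.4, 21.4 and 35.6 CPM in 12ON livers, against 1.19, 0.61 and 0.474 CPM in group 12 (log2 5.29 ± 0.36). Rragd, a GTPase that brings mTORC1 to the lysosome, was at 57.9, 52.7 and 64.1 CPM in 12ON livers, against 1.5, 1.83 and 2.5 CPM in group 12 (log2 4.86 ± 0.34). Also in this band were Myo5c, an epithelial cargo myosin (64.5-fold), Pak6, a kinase known as a partner of the androgen receptor (37.1-fold), Igdcc4, an immunoglobulin superfamily receptor (39.8-fold), Rasal1, a RAS GTPase activator (33.4-fold), and Dnah1, a dynein of cilia (24.7-fold). The lower band held Mmd2, a membrane protein of the Golgi, at 11.4, 3.43 and 8.13 CPM in 12ON livers, against 257, 239.6 and 275 CPM in group 12 (log2 -5.07 ± 0.76). Gpc1, a cell surface heparan sulfate proteoglycan, was at 3.64, 5.32 and 3.58 CPM in 12ON livers, against 47, 72.1 and 60.8 CPM in group 12 (log2 -3.85 ± 0.49), and Enho, which encodes the secreted peptide adropin, was at 1.72, 1.39 and 1.64 CPM in 12ON livers, against 24.6, 18 and 35.7 CPM in group 12 (log2 -4.04 ± 0.37). Zap70, a kinase of T cell receptor signalling, was at 1.66, 1.3 and 1.57 CPM in 12ON livers, against 16.5, 18.6 and 24.9 CPM in group 12 (log2 -3.73 ± 0.54), beside T and NK cell markers whose sum over 6 genes was 3.23 to 3.53 CPM in 12ON and 4.36 to 5.58 CPM in group 12. Of those 6 markers 1 was called lower, and 0 on total counts or with the mitochondrial term. The part of T cells in the Zap70 values was not tested. Ces1f, a carboxylesterase of a dense gene cluster, fell 14.7-fold.

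The calls of single genes were set against other fits. When the mitochondrial share was a term of the fit, 20 of the 228 called genes named here no longer passed, namely the plasma protein genes C3, Fga, Fgb, Hp, Hpx and Trf, the metabolic genes Ahcy, Cps1, Gls2, Mat1a and Paox, the antizymes Oaz1 and Oaz2, and Cela2a, Prss2, Plat, Plaur, Psmc2, Tfam and Wt1. The log2 fold changes with that term were -1.50 for Fga, -1.46 for Fgb and -1.56 for Fgg, -0.94 for Hp and -1.003 for Hpx. They were 4.52 for Gsn, 4.09 for Psat1, 2.16 for Sox4, 1.28 for Plat and 10.67 for Prss2, and -3.37 for Slc1a2 and -1.77 for Slc30a10. On total counts 12 calls were lost, those of Gls2, Mat1a, Mlx, Mlxipl, Mycl, Oaz1, Oaz2, Paox, Psmc2, Tfam, Trf and Wt1. Of the 26 named genes without a call, 10 were called higher on total counts, namely Bmi1, C1qb, Cdk4, Hes1, Hnrnpk, Jag1, Mettl3, Rnf2, Sf3b1 and Shmt2. Against a 1.5-fold change 25 calls were lost, among them those of C3, Cct7, Cps1, Eif4a1, Eif4e, Hfe, Hnf4a, Max and Odc1. Other genes without a call passed elsewhere. With the mitochondrial term Hmga2 (log2 -1.80, adjusted p = 0.0308) and Slc1a5 (log2 -1.04, adjusted p = 0.019) were lower. With DESeq2 Slc1a5 was lower (adjusted p = 0.0394) and Hnrnpk higher (adjusted p = 0.0101). In the 6 libraries of both groups alone Slc1a5 (adjusted p = 0.028) and Ring1 (adjusted p = 0.0394) were lower, and with the Xist term so was Slc1a5 (adjusted p = 0.0343). Without 12ON mouse 1 Mt2 was lower (log2 -3.13, adjusted p = 0.0387), and without mouse 3 of group 12 Hnrnpk was higher (adjusted p = 0.0484). Reads were counted for every gene they overlapped, and of the named genes more than 50% of the exon bases lie within another gene for Sox4 (54.6%), Trf (63.5%) and Snrpf (65.9%), whose counts are therefore not separate from those of their neighbours.

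Levels of a few of these genes in the groups sampled at other days are set beside those of the 2 groups. Smpdl3b was at 104, 118 and 125 CPM in 1OFF, 102, 119 and 109.8 CPM in 2OFF, 66, 78.8 and 39.5 CPM in 3OFF and 11.6, 15.7 and 12.6 CPM in 7OFF, that is, near the 12ON livers in 1OFF and 2OFF and between both groups in 7OFF. Gsn was at 1144, 1366 and 862 CPM in 1OFF and 62.2, 153 and 228 CPM in 7OFF, so the livers of 1OFF overlapped those of 12ON and the livers of 7OFF lay between both groups. Ubd was at 31.1, 26 and 23.3 CPM in 1OFF, 29.2, 21.7 and 32.1 CPM in 3OFF and 3.49, 2.64 and 3.73 CPM in 7OFF. Jag2 was at 8.23, 9.74 and 1.91 CPM in 2OFF, with mouse 3 the lowest, and at 0.994, 0.59 and 0.136 CPM in 3OFF, by which time it overlapped group 12. Of the genes that were lower in 12ON, Cbs was at 265, 225 and 297 CPM in 1OFF and 517, 740.4 and 789.7 CPM in 7OFF, and Gpc1 at 7.66, 4.41 and 4.48 CPM in 1OFF and 12.2, 32.8 and 6.9 CPM in 7OFF, so that all 3 livers of 7OFF stayed below the group 12 range for both genes. Prlr was at 65, 59.8 and 109 CPM in 1OFF and 90.4, 207 and 344 CPM in 7OFF, and Ugt3a1 at 14.5, 8.56 and 8.48 CPM in 1OFF and 85.1, 38.7 and 39.5 CPM in 7OFF. The labels leave unsaid if MycER was ever active in the OFF mice, and the day after injury differs from that of the 2 groups compared here.

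**Figure D5:**
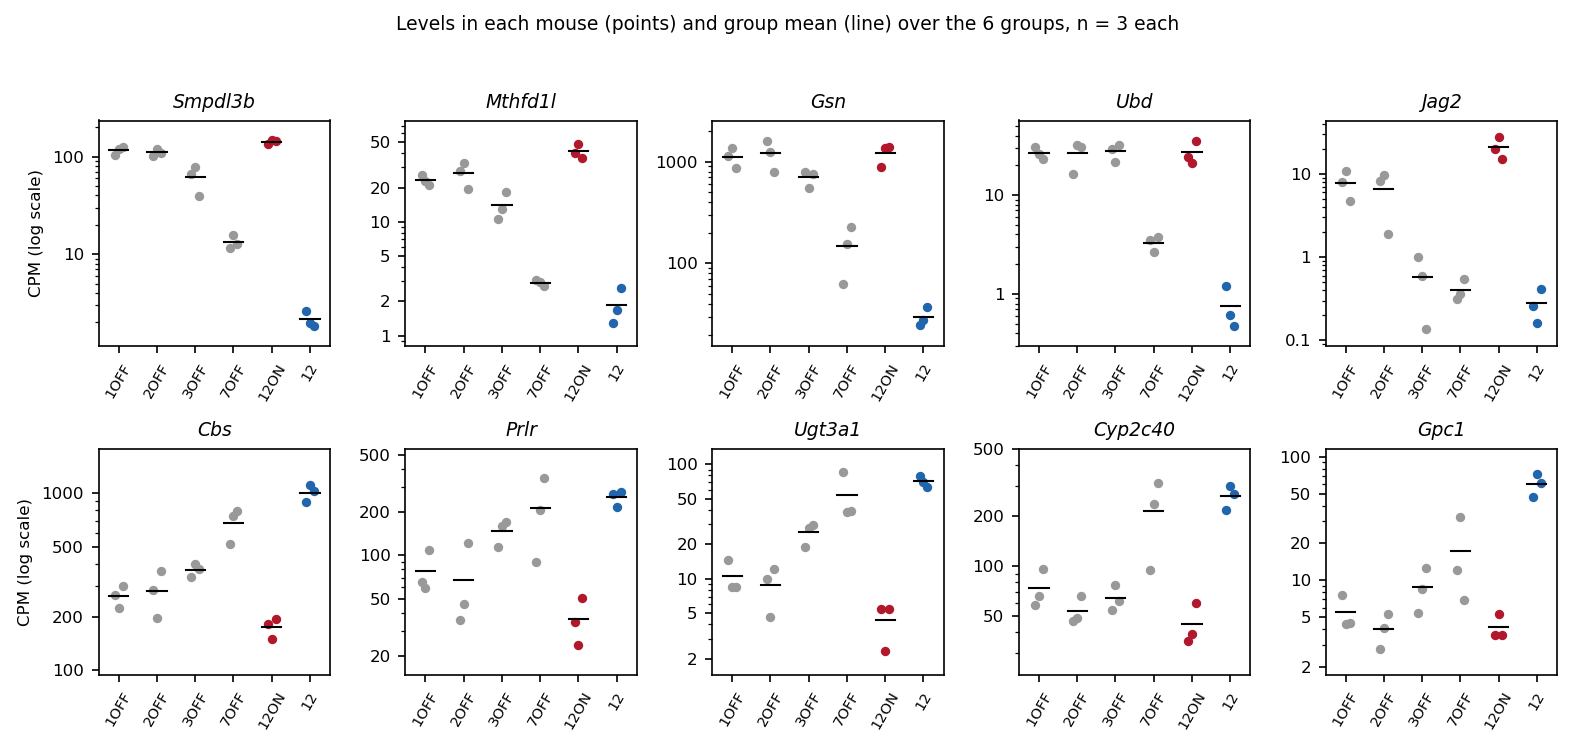
Points give the level of each mouse in CPM (log scale) and lines the group means for 10 genes over the 6 groups, with the OFF groups in grey in order of days after injury, 12ON in red and group 12 in blue. The upper row holds genes higher in 12ON and the lower row genes lower in 12ON.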

How the data were processed

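The deposited values are raw read counts per gene, 1 table per library. Per the file headers, featureCounts 1.5.0-p1 assigned reads to the exons annotated by Ensembl 82 (GRCm38), without strand, with a minimum overlap of 10 bases, for every gene a read overlapped and without reads of several alignments, so a gene and its antisense partner, or close copies, cannot be told apart fully. The submitters' processing notes name Trim Galore, TopHat2 and mm10, with versions not given in the sources used here. From the counts of 18 libraries (23.1 to 75.3 M each), 1 model with 6 groups was fitted with edgeR 4.0.16 in R 4.3.3 (TMM scaling, filterByExpr with a minimum count of 10, 12 residual degrees of freedom). The 12ON minus 12 contrast was tested with the quasi-likelihood F test, two-sided, with Benjamini-Hochberg adjustment over 17789 genes at 0.05, and the biological coefficient of variation was 0.202. The test against a 1.5-fold change used glmTreat of the same package, and DESeq2 1.42.0 was an alternative. The script was tested on simulated counts. Levels are CPM on TMM-scaled library sizes. Nothing in the labels used here says that the 3 mice of a group came from separate litters or days, and p-values measure the spread between these samples, which differed from each other by far more than counting error.

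The groups compared, the 40 function lists (1066 of 1086 genes tested) and the 11 marker lists were chosen with earlier results of these data known, so counts of members are descriptions. Named genes came from the lists, from fold change ranks 13 to 42 in each direction (mean of at least 4 CPM, groups that do not overlap, no Mup genes), from the 15 largest changes in mean CPM and from the 20 smallest p-values in each direction among genes changed at least 2-fold. Promoter sequences are from RefSeq (GRCm38.p6). Alternatives were another scaling, filter, tool or set of libraries, a replicate block, terms for the mitochondrial share and for Xist, a 1.5-fold test, and leaving out each library. A few results are not reported here.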

Additional observations from a re-analysis of the deposited data

How the results depend on the processing

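The counts of 4269 genes higher and 4029 lower, and of 1761 and 1449 changed at least 2-fold, stayed within 1.5 times under most alternatives. On total counts they were 9130 higher and 1403 lower, with 3788 and 653 at least 2-fold, so that 86.7% of the calls were higher, against 51.4% with TMM. This follows from the construction, since total counts moved the median gene by 0.49 on the log2 scale. When the mitochondrial share, which separates the groups, was a term of the fit, 2328 were higher and 1789 lower. Against a 1.5-fold change 1637 were higher and 1255 lower. Leaving out single libraries gave 3588 to 3937 higher and 3286 to 3650 lower, with 1596 to 1796 and 1255 to 1476 at least 2-fold. Whether replicate numbers pair the livers could not be settled, since deviations from a mean of 3 livers are tied to each other. Same-numbered livers of 12ON and 12 had correlations of deviations of 0.349, -0.0463 and 0.000253, and only mouse 1 of each group correlated best with its own number. With a replicate block the counts were 4113 higher and 3816 lower in the 6 libraries alone, or 4302 higher and 4058 lower in all 18. DESeq2 gave 4320 higher and 4120 lower. Among called genes named here, the sign turned on total counts for Oaz1 (0.0903) and Oaz2 (0.13), and without 12ON mouse 3 for Cela2a, whose log2 fold change was -0.71 to 3.29 over the libraries left out. The cause was not tested.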
